A study of Saccharomyces cerevisiae with 18 samples.

Results

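The genes described here are the 10 that encode most enzymes of the yeast glycolytic trunk, PGI1, PFK1, PFK2, FBA1, TPI1, PGK1, GPM1, ENO1, ENO2 and CDC19. They were chosen by their identifiers for what they encode, and no measured value entered that rule. Earlier results of these data were known when the choice was made. All 10 were found among the 6692 genes counted in every library. Their newly synthesized RNA (nsRNA) was measured in cells from which subunits of the coactivators SAGA and TFIID, or of the tail of Mediator, had been removed. Glycolysis splits glucose to pyruvate and yields ATP, and in Saccharomyces cerevisiae grown on glucose it carries nearly all carbon, with pyruvate leaving as ethanol. Its enzymes are among the most abundant proteins of the cell, and their promoters are classically activated by Gcr1, which binds CT boxes, together with Gcr2, Rap1 and Tye7. SAGA and TFIID both help bring the TATA-binding protein to promoters, while the Mediator tail is the module that many activators contact.

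All libraries came from W303 cells with the markers ura3-1, trp1-1, ade2-1, leu2-3,112, his3-11,15 and can1-100, and with OsTIR1, the auxin receptor from rice, expressed from the GPD1 promoter and integrated at leu2. Spt20-AID (GZY378) carried SPT20-3xHA-IAA7 marked with HIS3MX6. Med16/Spt20-AID (GZY359) carried SPT20-3xHA-IAA7 (HIS3) together with MED16-3V5-IAA7 (kanMX6), and Med16/Taf13-AID (GZY416) carried MED16-3V5-IAA7 (KanMX6) together with TAF13-3xHA-IAA7 (HIS3MX6). The first and second are listed as MATa, and no mating type is listed for the third. Each strain is a single line. Cultures in YPD at 30°C were divided and given 0.5 mM 3-IAA or DMSO for 30 min. 3-IAA is the auxin that sends the tagged protein to degradation. The cultures were then given 4-thiouracil for 6 min, so that RNA made in that window could be labelled and recovered. How much older, unlabelled RNA came with it was not tested. With 3 replicates of each of the 6 groups there were 18 libraries. All strains compared here carry a degron, and depletion cannot be told apart from any other action of the auxin. The library names of Med16/Taf13-AID begin with another number than the rest. What it stands for is not stated, and it cannot be told apart from the strain.

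Upper glycolysis is represented by PGI1 (YBR196C, chromosome II, 612236 to 613900), the phosphoglucose isomerase, and by PFK1 (YGR240C, chromosome VII, 970771 to 973734) and PFK2 (YMR205C, chromosome XIII, 671887 to 674766), the alpha and beta subunits of phosphofructokinase. Aldolase is encoded by FBA1 (YKL060C, chromosome XI, 326408 to 327487), and triose phosphate isomerase, which joins the 2 products of aldolase, by TPI1 (YDR050C, chromosome IV, 555726 to 556472). In the lower part PGK1 (YCR012W, chromosome III, 137746 to 138996), the phosphoglycerate kinase, makes ATP and GPM1 (YKL152C, chromosome XI, 163642 to 164385), the phosphoglycerate mutase, moves the phosphate. ENO1 (YGR254W, chromosome VII, 1000927 to 1002240) and ENO2 (YHR174W, chromosome VIII, 451327 to 452640) are enolases, of which ENO2 is the main form on glucose, and CDC19 (YAL038W, chromosome I, 71786 to 73288) is the main pyruvate kinase. These positions are those of the coding regions in the R64 build, and no gene annotated there overlaps any of the 10. That annotation holds 6008 of the 6692 counted identifiers, and overlap with the others was not examined.

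The promoters are shown where they hold the sites through which glycolytic activators are known to act. Whether these sites bear on the responses was not tested. In the 800 bases before the start codon, read on both strands, CTTCC, the core of the CT box, was found in all 10 genes but also in 81.3% of 5482 tested genes. The Rap1 core searched, CACCC followed by 2 bases of any kind and ACA, was found in 4 of the 10, PFK2, GPM1, ENO1 and CDC19, and in 3.01% of all. The stretches below hold this core with the CT boxes nearest to it, both in capitals (GGAAG is the CT box on the other strand), 5′ to 3′ on the strand of the gene from the RefSeq R64 genome. They lie at chrXIII:675239-675348 (minus strand) for PFK2, chrXI:164728-164790 (minus) for GPM1, chrVII:1000434-1000478 (plus) for ENO1 and chrI:71123-71162 (plus) for CDC19.
PFK2: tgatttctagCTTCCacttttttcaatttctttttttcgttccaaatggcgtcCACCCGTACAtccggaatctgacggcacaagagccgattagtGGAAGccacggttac
GPM1: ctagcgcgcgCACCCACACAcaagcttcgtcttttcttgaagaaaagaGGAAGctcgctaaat
ENO1: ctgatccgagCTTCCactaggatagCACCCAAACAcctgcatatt
CDC19: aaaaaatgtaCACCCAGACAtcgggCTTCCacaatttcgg
CACGTG, the E box that Tye7 can bind, was found in the same window of PGK1, ENO1 and CDC19, and in 9.12% of all genes. The motifs share no letters with each other in these stretches. A match is a description of the letters and not a test of binding.

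The TATA box is shown because promoters with and without it have classically been discussed for SAGA and TFIID. TATAAA was found within 250 bases before the start codon, on either strand, in 8 of the 10 genes and in 42.7% of all 5482. PGI1 and GPM1 had none, and the matches of PFK1 lay 32 and 36 bases before the start codon. In the other 7 genes a TATAAA on the coding strand lay 123 to 211 bases before the start codon, shown in capitals in 30 bases of each gene. They come from the same genome at chrXIII:674960-674989 (minus) for PFK2, chrXI:327593-327622 (minus) for FBA1, chrIV:556625-556654 (minus) for TPI1, chrIII:137585-137614 (plus) for PGK1, chrVII:1000769-1000798 (plus) for ENO1, chrVIII:451124-451153 (plus) for ENO2 and chrI:71575-71604 (plus) for CDC19.
PFK2: ctacttgcatttTATAAAacaataatattt
FBA1: cacttgatttatTATAAAaagacaaagaca
TPI1: tgtaacagggaaTATAAAgggcagcataat
PGK1: catttacatataTATAAActtgcataaatt
ENO1: acgatttcaacaTATAAAtagcttttgata
ENO2: gcaccaagcataTATAAAaaaaaaaagcat
CDC19: ttttttctgaatTATAAAtactctttggta
PGI1 and GPM1, without a match, had responses within the range of the other 8 genes in each strain, as given below. A relation between this match and the responses was not tested.

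The deposited values were raw read counts, and sense reads per library ranged from 874975 to 6189719, lowest in the 3-IAA libraries of Med16/Taf13-AID. Each of the 10 genes had 1191 to 23997 sense reads in every library. Counts were divided by size factors from an S. pombe spike-in mixed in by optical density, which makes a fall common to all genes visible, and which gives all genes of a library the same scaling error. In such bulk samples fewer cells and less RNA per cell cannot be told apart. With this scaling the median of 5567 tested genes changed on 3-IAA by a log2 fold change of 0.38 in Spt20-AID, 0.31 in Med16/Spt20-AID and −1.68 in Med16/Taf13-AID. All 10 genes passed the filter of a mean count of at least 10. The transcripts of the tagged genes do not check the labels, as the degron acts on the protein: with 3-IAA, SPT20 had log2 fold changes of 0.73 and 0.43 in its 2 degron strains, MED16 0.36 and −1.50, and TAF13 −1.98 in Med16/Taf13-AID.

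With DMSO, before depletion, the 10 genes stood among the highest of all genes per length. FBA1 had 11260 ± 2369 normalized counts per kb of coding region (SD, n = 3) in Spt20-AID, 13352 ± 854 (SD, n = 3) in Med16/Spt20-AID and 11888 ± 1385 (SD, n = 3) in Med16/Taf13-AID, and GPM1 had 10484 ± 1506, 13734 ± 1395 and 11038 ± 2030 (SD, n = 3). These genes held ranks 5 to 8 of 5482 genes in each strain, and their libraries overlapped in every strain. PGK1, CDC19 and ENO2 followed with means of 7191 to 10958 counts per kb, and they overlapped each other and TPI1 in Spt20-AID, while CDC19 stood apart from both neighbours in Med16/Spt20-AID. TPI1, at 5170 to 7207, and ENO1, at 4009 to 6361, stood next, and their order differed between strains. PGI1 had 2545 to 3120 counts per kb, apart from its neighbours in every strain. The 2 subunits of phosphofructokinase were lowest, at 938 to 1585 counts per kb, with overlapping libraries of PFK1 and PFK2 in each strain.

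ENO1 and ENO2 are 94.8% identical over their 1314 bases, with 1246 identical bases and a longest shared run of 112. Of all stretches of 50 bases in either gene, a length chosen here since the read length of these libraries is not known, 23.6% occur elsewhere in the genome, and reads that map to both places are not in the counts. In the other 8 genes no stretch of 50 bases was repeated. Levels of ENO1 and ENO2 are therefore those of the parts that differ. Their counts per kb given above were divided by the whole coding length and may be too low, and so may their place in the order. Antisense reads were few, at 0.027 to 0.15% of the reads on the 10 genes in each library, where the range over all genes was 5.64 to 8.46%. Genes that overlap others on the opposite strand were not left out of the latter range.

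Removal of Spt20, which takes SAGA apart, was followed by lower nsRNA of most of the 10 genes. In Spt20-AID 8 genes were lower with 3-IAA than with DMSO (edgeR's quasi-likelihood test, adjusted p under 0.05), none was higher, and PGK1 and ENO2 were not called. Of all tested genes, 8.08% were called lower and 54.0% higher, and the log2 fold changes of the 10 genes, from −1.21 to −0.16 with a median of −0.52, all lay below the lower quartile of all genes, 0.11. The decrease was largest for ENO1, TPI1 and FBA1.

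ENO1 had 6104, 5305 and 4394 normalized counts in DMSO replicates 1 to 3 of Spt20-AID and 2284, 1874 and 2694 with 3-IAA. The groups did not overlap, and the log2 fold change was −1.21 (SE 0.15, adjusted p = 1.63e-13 from edgeR). TPI1 fell from 5538, 4346 and 3507 to 2334, 1954 and 2850, again without overlap, a log2 fold change of −0.91 (SE 0.15, edgeR adjusted p = 2.76e-08). FBA1 fell from 14465, 12609 and 9408 to 6090, 5320 and 8233 (log2 fold change −0.89, SE 0.15, edgeR adjusted p = 1.73e-07). The fitted level with 3-IAA was thus 0.433 of that with DMSO for the enolase ENO1, 0.533 for TPI1 and 0.538 for FBA1.

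Phosphofructokinase showed smaller decreases in the same cells. PFK1 had 3112, 3134 and 2493 normalized counts with DMSO and 1677, 1491 and 2182 with 3-IAA (log2 fold change −0.71, SE 0.15, edgeR adjusted p = 1.32e-05). PFK2 had 2840, 2914 and 2347 with DMSO and 1715, 1569 and 2345 with 3-IAA (log2 fold change −0.53, SE 0.15, edgeR adjusted p = 0.00105), so that its groups were parted by only 2 counts. CDC19, PGI1 and GPM1 were called lower with log2 fold changes of −0.51, −0.49 and −0.39, although their groups overlapped. In all, 5 of the 10 genes had every 3-IAA library below every DMSO library, against 6.75% of all genes, and none had every 3-IAA library above, against 49.2%.

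PGK1 and ENO2 moved less. PGK1 had 11185, 10091 and 8009 counts with DMSO and 8543, 7768 and 9975 with 3-IAA, and its log2 fold change was −0.16 with a 95% interval of −0.45 to 0.14. For ENO2 the counts were 10912, 10396 and 7041 against 8139, 6991 and 9149, a log2 fold change of −0.22 with an interval of −0.52 to 0.08. Both lay below the median of all genes by 0.54 and 0.61 on the log2 scale. In replicate 3 both genes were higher with 3-IAA than with DMSO, and in replicates 1 and 2 both were lower.

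This held beyond these 2 genes. In replicates 1 and 2 of Spt20-AID all 10 genes were lower with 3-IAA, by log2 ratios of −0.38 to −1.50, whereas in replicate 3 the ratios ran from −0.71 for ENO1 to 0.38 for ENO2. The DMSO library of replicate 3 had the largest size factor of all, 2.081, and its part in these values was not tested. Leaving out single libraries lost GPM1 (without the 3-IAA library 2 or the DMSO library 1) or gained ENO2 (without the DMSO library 3). Without replicate 3 in both treatments all 10 genes were called lower, without replicate 1 there were 5 and without replicate 2 there were 4, namely PFK1, FBA1, TPI1 and ENO1. The calls over all genes also moved, in this order to 697, 339 and 303 lower and 1265, 2892 and 3317 higher. The fits without a replicate in both treatments were added after seeing the data.

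A measure that needs no size factor gave the same direction. The 10 genes together held 3.02, 2.82 and 2.69% of all sense reads in the DMSO libraries of Spt20-AID and 1.77, 1.75 and 1.85% in the 3-IAA libraries. Replicate 3 had the lowest share of the DMSO libraries and the highest of the 3-IAA libraries, and the treatments did not overlap. The share depends on all other genes as well, and since most genes did not fall in this strain it gives their level relative to the rest. With TMM normalization, which sets the change of most genes to about 0, all 10 genes were called lower with a median log2 fold change of −0.89, and of all genes 1395 were lower and 951 higher, against 450 and 3004 with the spike-in.

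**Figure D1:**
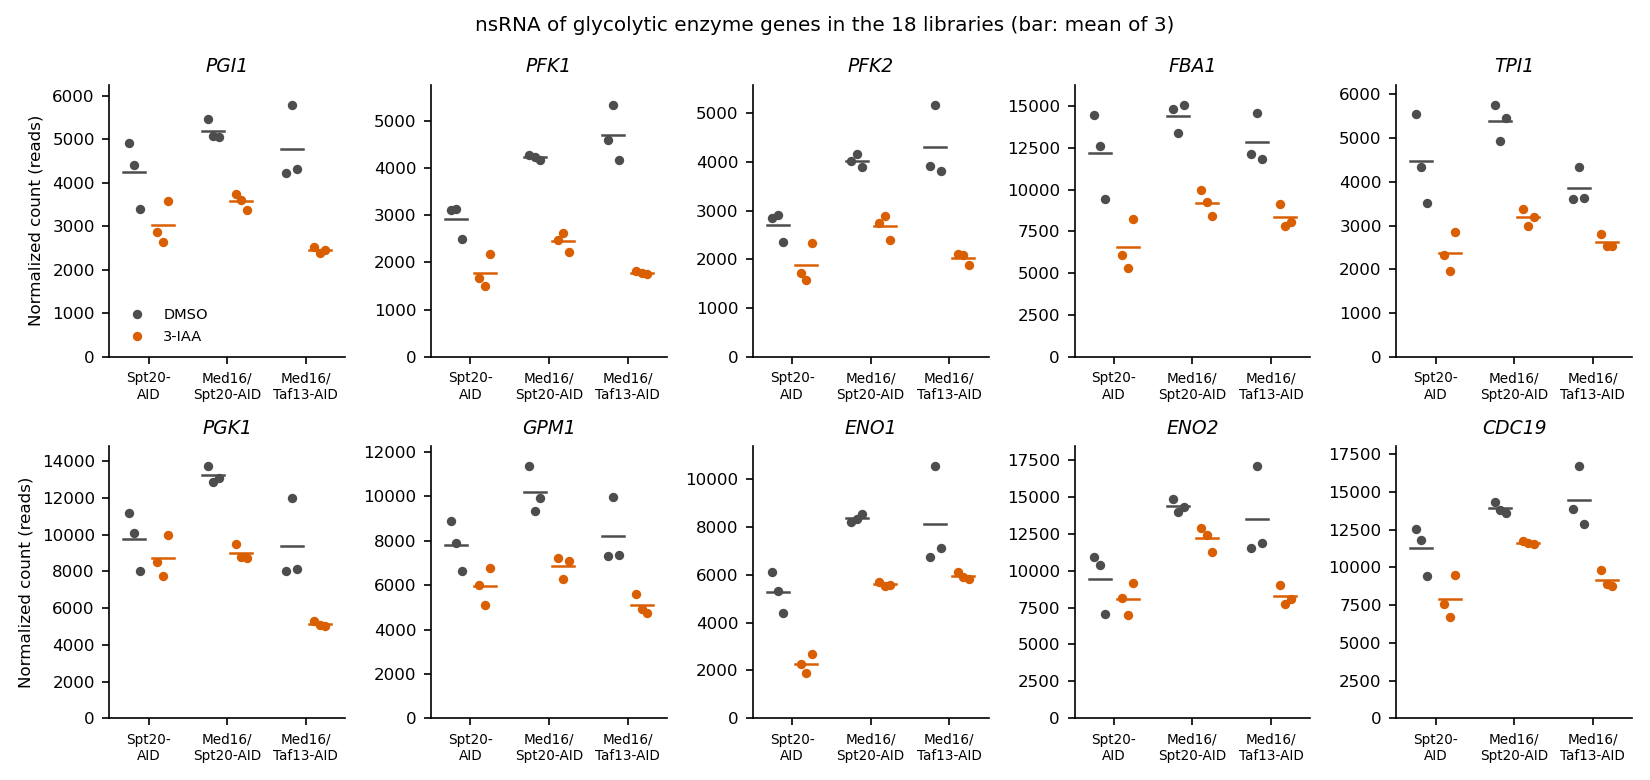
Normalized counts (reads divided by the spike-in size factor, vertical axis from 0) of each of the 10 genes in the 18 libraries, with DMSO in grey and 3-IAA in orange; points are libraries in the order of replicates 1 to 3, and bars are means of 3. In Med16/Spt20-AID and Med16/Taf13-AID every 3-IAA point lies below every DMSO point for all 10 genes with this scaling, and in Spt20-AID this holds for 5.

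Loss of Med16 together with Spt20 was followed by decreases of about the same size. In Med16/Spt20-AID 8 of the 10 genes were called lower with 3-IAA and none higher, against 10.3% of all genes lower and 46.2% higher. The log2 fold changes ran from −0.79 to −0.24 with a median of −0.58, where the median of all genes was 0.31 and the lower quartile 0.11. All 10 genes had every 3-IAA library below every DMSO library, against 12.1% of all genes, and none the reverse, against 54.2%. Replicates were closer to each other here than in Spt20-AID, and the 8 calls were the same without any single library or pair of libraries of this strain.

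PFK1 was the most reduced, from 4283, 4242 and 4160 normalized counts with DMSO to 2477, 2627 and 2230 with 3-IAA (log2 fold change −0.79, SE 0.15, edgeR adjusted p = 1.09e-06). TPI1 fell from 5762, 4924 and 5464 to 3380, 2997 and 3204 (log2 fold change −0.75, SE 0.15, edgeR adjusted p = 4.6e-06). FBA1, PFK2, GPM1, PGK1 and PGI1 were lower by log2 fold changes between −0.65 and −0.54. ENO1, the gene most reduced in Spt20-AID, had 8201, 8334 and 8541 counts with DMSO and 5690, 5530 and 5588 with 3-IAA, a log2 fold change of −0.58 (SE 0.15, edgeR adjusted p = 0.000764).

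The last enzymes of the pathway that serve on glucose were not called. ENO2 had 14877, 13992 and 14325 counts with DMSO and 12906, 12423 and 11286 with 3-IAA, with a log2 fold change of −0.24 (95% interval −0.54 to 0.06, edgeR adjusted p = 0.159). CDC19 had 14356, 13815 and 13581 with DMSO and 11779, 11630 and 11530 with 3-IAA (log2 fold change −0.26, 95% interval −0.56 to 0.04, edgeR adjusted p = 0.13). Neither gene's libraries overlapped between treatments. In a fit of the Med16/Spt20-AID libraries alone, in which the spread is that of this strain, and with TMM normalization, all 10 genes were called lower. The fit of these libraries alone called 660 of 5690 genes lower and 3286 higher.

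The share of sense reads on the 10 genes was 2.09, 2.12 and 2.30% with DMSO and 1.5, 1.44 and 1.53% with 3-IAA in Med16/Spt20-AID, again without overlap. TMM normalization called 1200 genes lower and 663 higher in all, against 576 and 2573 with the spike-in.

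The responses of the Spt20-AID strains, without and with the degron on Med16, were compared next. They are separate lines that also differed with DMSO, as given below. No gene of the 10 was called different between Med16/Spt20-AID and Spt20-AID in edgeR's interaction test, where 2.64% of all genes were called lower and 0.611% higher, and 1 of the 10 had an unadjusted p under 0.05. DESeq2's Wald test also called none of the 10. The differences ran from −0.40 for PGK1 to 0.63 for ENO1 with a median of −0.03, and the median over all genes was −0.10.

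ENO1 came closest to a call, with a log2 fold change 0.63 higher in Med16/Spt20-AID (95% interval 0.22 to 1.04, edgeR adjusted p = 0.0724). Without replicate 3 of Spt20-AID in both treatments its difference was 0.88 (edgeR adjusted p = 0.000266), and without its 3-IAA or DMSO library alone 0.76 and 0.74, called in each case. FBA1 was also called without that replicate, at 0.60 (edgeR adjusted p = 0.0287), while its difference over all libraries was 0.25 with an interval of −0.17 to 0.67. PGK1 differed by −0.40 with an interval of −0.82 to 0.02. For ENO2 the difference was −0.01 with an interval of −0.44 to 0.41, so a difference within that interval, in either direction, was not excluded. TMM called ENO1 (0.70) and CDC19 (0.33) higher and PGK1 (−0.33) lower, and 456 genes higher and 403 lower in all, against 34 and 147 with the spike-in.

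In cells that lost Taf13 and Med16 nsRNA fell nearly everywhere with spike-in scaling, and the 10 glycolytic genes fell less than most. All 10 were called lower in Med16/Taf13-AID with that scaling, as were 98.2% of all genes, and none higher, against 0.0719%, while TMM and median-of-ratios scaling called all 10 higher. The log2 fold changes ran from −1.40 to −0.45 with a median of −0.70, whereas the median of all genes was −1.68 and the upper quartile −1.47. Every one of the 10 genes thus lay above the upper quartile of all genes. All 10 had every 3-IAA library below every DMSO library with the spike-in, as did 97.6% of all genes (0.0359% had the reverse), so neither count sets these genes apart.

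ENO1 kept the most, with 6718, 10530 and 7092 normalized counts with DMSO and 6101, 5891 and 5803 with 3-IAA, a log2 fold change of −0.45 (SE 0.15, edgeR adjusted p = 0.00256) at percentile 98.8 of all genes. DMSO replicate 2 was high, and without it the log2 fold change was −0.22 and not called (edgeR adjusted p = 0.142). TPI1 had 3616, 4342 and 3628 with DMSO and 2799, 2542 and 2541 with 3-IAA (log2 fold change −0.56, SE 0.15, edgeR adjusted p = 0.000174). FBA1, CDC19, GPM1 and ENO2 followed with log2 fold changes of −0.62, −0.66, −0.69 and −0.71.

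Lower values were found at the top of the pathway. PFK1 had 4587, 5342 and 4164 normalized counts with DMSO and 1823, 1771 and 1744 with 3-IAA, a log2 fold change of −1.40 (SE 0.15, edgeR adjusted p = 9.31e-21) at percentile 80.3. PFK2 had 3919, 5176 and 3808 with DMSO and 2111, 2086 and 1892 with 3-IAA (log2 fold change −1.08, SE 0.15, edgeR adjusted p = 2.68e-13). PGI1, the first enzyme of the set, had 4218, 5795 and 4325 with DMSO and 2527, 2394 and 2458 with 3-IAA (log2 fold change −0.96, SE 0.15, edgeR adjusted p = 1.33e-10). These 3 genes, also the lowest of the 10 per length with DMSO, had the largest decreases with this scaling, and PGK1 followed at −0.87.

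The share of reads on the 10 genes was larger after depletion. They held 2.08, 2.41 and 2.19% of the sense reads with DMSO and 4.00, 3.79 and 3.83% with 3-IAA in Med16/Taf13-AID. TMM normalization accordingly called all 10 higher, with a median log2 fold change of 0.97, and 810 genes lower and 833 higher in all, against 5467 and 4 with the spike-in. The share and the spike-in value describe the same libraries: the level per spike-in fell, and it fell less than that of other genes.

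**Figure D2:**
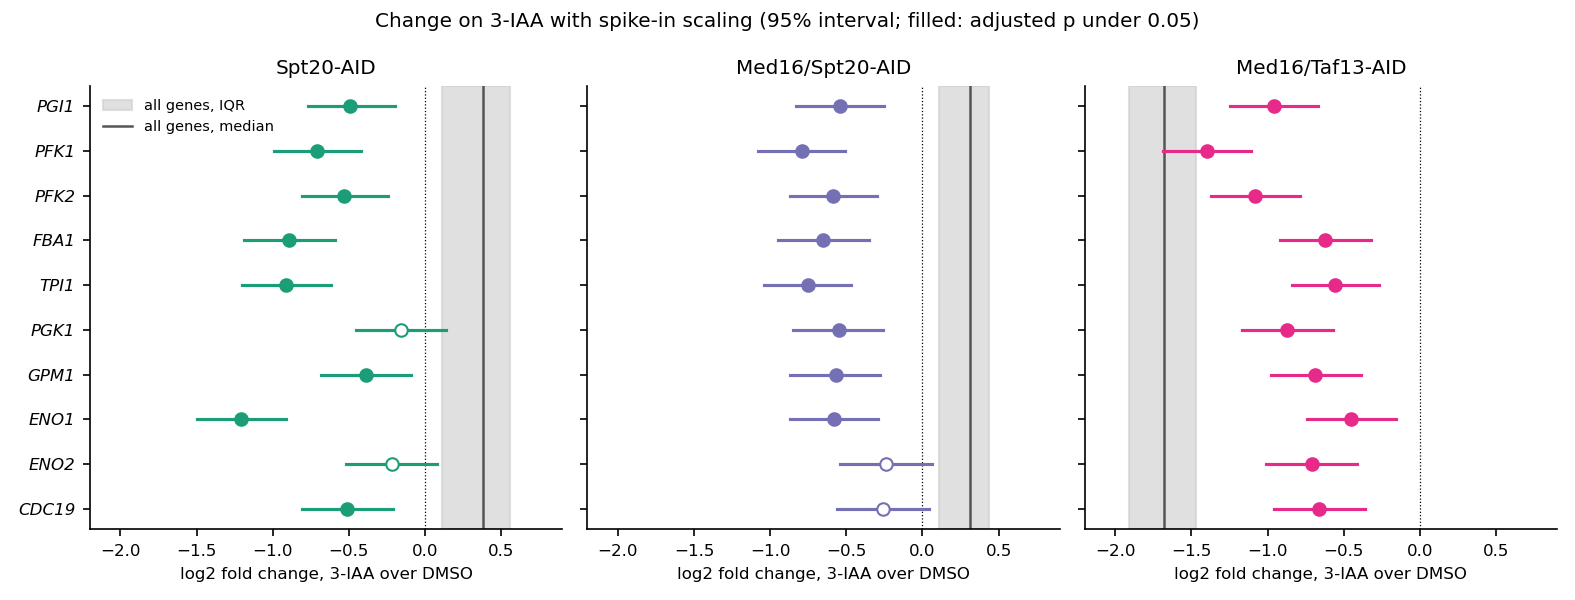
Log2 fold change of each gene on 3-IAA with spike-in scaling (points, with 95% intervals), filled where the edgeR adjusted p was under 0.05, for the 3 strains; the line and band are the median and interquartile range of 5567 genes. The 10 genes lie to the left of the band in both Spt20-AID strains and to the right of it in Med16/Taf13-AID, where TMM or median-of-ratios scaling moves them above 0.

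The effect of removing Taf13 in place of Spt20, both with Med16, was tested as the difference between Med16/Taf13-AID and Med16/Spt20-AID. With the spike-in 4 of the 10 genes were called more reduced in Med16/Taf13-AID and none less, whereas 93.9% of all genes were called more reduced and 0.449% less, and TMM and median-of-ratios scaling called all 10 less reduced. Over all genes TMM called 777 more and 1128 less reduced, and median-of-ratios 787 and 1123. The differences of the log2 fold changes were −0.61 for PFK1 (SE 0.21, edgeR adjusted p = 0.00334), −0.50 for PFK2 (SE 0.21, edgeR adjusted p = 0.0169), −0.47 for ENO2 (SE 0.22, edgeR adjusted p = 0.0322) and −0.42 for PGI1 (SE 0.21, edgeR adjusted p = 0.046). All 10 lay above the upper quartile of all genes, −1.66, with a median of −0.36 against −1.99. For the other 6 genes the differences ran from −0.40 for CDC19 to 0.20 for TPI1. This comparison and the one with Spt20-AID share the libraries of Med16/Spt20-AID.

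When replicate number was added as a block, the differences of PFK1 and PFK2 were still called, at −0.60 and −0.48 (edgeR adjusted p = 0.00753 and 0.0323), and those of PGI1 and ENO2 were not, at −0.40 and −0.44 (edgeR adjusted p = 0.0739 and 0.0521). Without the Med16/Spt20-AID 3-IAA library 2, the Med16/Taf13-AID 3-IAA library 3 or the Med16/Taf13-AID DMSO library 2, 1 gene, PFK1, was called. Without the Med16/Spt20-AID 3-IAA library 1, either of its DMSO libraries 2 and 3, or the Med16/Taf13-AID 3-IAA library 2, there were 2, and without the Med16/Taf13-AID DMSO library 3 CDC19 was also called. Leaving out same-numbered libraries in both treatments gave 1 gene for replicates 1 and 2 of Med16/Spt20-AID and for replicate 2 of Med16/Taf13-AID. PFK1 was called in every one of these fits. Over all genes, 5118 to 5232 were called more reduced in them.

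The genes that encode the same step could be compared within a library, where no size factor enters. These ratios were chosen after the values had been seen. The ratio of ENO1 to ENO2 reads was 0.559, 0.510 and 0.624 with DMSO and 0.281, 0.268 and 0.294 with 3-IAA in Spt20-AID, a log2 change of −1.0. In Med16/Spt20-AID it moved from 0.551, 0.596 and 0.596 to 0.441, 0.445 and 0.495 (log2 change −0.34), and in Med16/Taf13-AID it went from 0.583, 0.617 and 0.599 to 0.677, 0.763 and 0.720 (log2 change 0.26). The enolase reads thus held a smaller part of ENO1 after depletion in the first and second strain and a larger part in the third, with no overlap between treatments in any of them.

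The ratio of PFK1 to PFK2 moved the same way in all strains. It was 1.06 to 1.10 with DMSO and 0.930 to 0.978 with 3-IAA in Spt20-AID, 1.02 to 1.07 and 0.905 to 0.926 in Med16/Spt20-AID, and 1.03 to 1.17 and 0.849 to 0.922 in Med16/Taf13-AID. The log2 changes were −0.18, −0.20 and −0.32. A two-sided exact permutation test of each of the 6 ratio changes gave p = 0.1, which is the smallest value that 3 libraries against 3 allow. Differences between strains in these ratios were not tested.

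**Figure D3:**
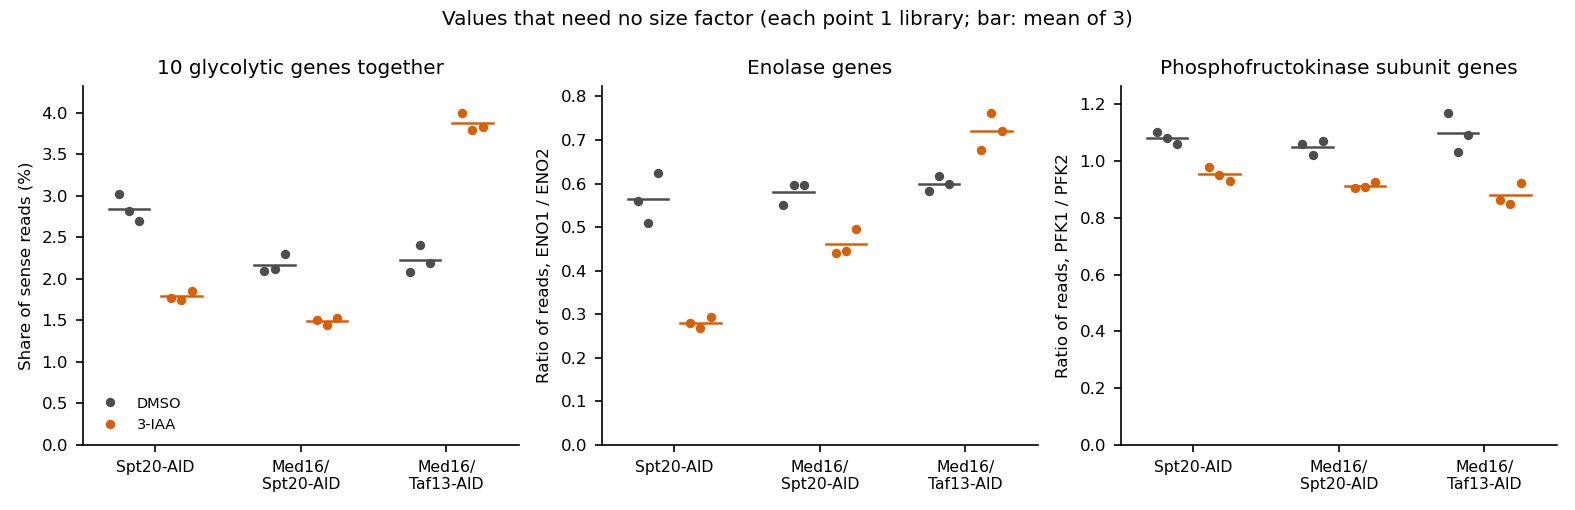
Share of sense reads on the 10 genes in percent (left), ratio of ENO1 to ENO2 reads (middle) and ratio of PFK1 to PFK2 reads (right) in each library, with DMSO in grey, 3-IAA in orange and bars at the mean of 3. The share is below DMSO in both Spt20-AID strains and above it in Med16/Taf13-AID, at 3.79 to 4.00% against 2.08 to 2.41%.

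The strains also differed before depletion. With the spike-in the DMSO level of 8 of the 10 genes was called higher in Med16/Spt20-AID than in Spt20-AID, as was that of 94.3% of all genes (0.341% were lower), while TMM and median-of-ratios scaling called all 10 lower. The log2 differences ran from 0.25 for FBA1 to 0.67 for ENO1 with a median of 0.41, all below the lower quartile of all genes, 0.75. The share of reads on the 10 genes was 2.69 to 3.02% in Spt20-AID and 2.09 to 2.30% in Med16/Spt20-AID. Without the DMSO library 3 of Spt20-AID or the DMSO library 1 of Med16/Spt20-AID 5 genes were called higher, and without the DMSO library 1 of Spt20-AID all 10 were. In these fits 5005, 5073 and 5343 of all genes were called higher, in this order. Of all genes TMM called 1519 lower and 1461 higher, against 19 and 5250 with the spike-in.

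Between Med16/Taf13-AID and Med16/Spt20-AID the DMSO level was called lower for TPI1 and PGK1, with log2 differences of −0.48 and −0.49 (edgeR adjusted p = 0.00315 and 0.00336), against 48.6% of all genes, and higher for none, against 7.02%. Without the Med16/Taf13-AID DMSO library 1 only TPI1 was called, and without its DMSO library 2 GPM1 was called as well. For the other 8 genes the differences ran from −0.32 for GPM1 to 0.15 for PFK1. With TMM and median-of-ratios scaling 6 of the 10 were called higher and none lower, where TMM called 1487 genes higher and 1484 lower in all and median-of-ratios 1564 and 1422. The DMSO libraries compared here also enter the responses given above.

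The other genes at the ends of the pathway did not all move with the 10. Hexokinase, glucokinase and glyceraldehyde-3-phosphate dehydrogenase, the steps left out of the 10, have 6 genes, of which 4 were called lower in Spt20-AID, 5 in Med16/Spt20-AID and 5 in Med16/Taf13-AID with the spike-in, where TMM called 5 higher in the last. Over all genes the shares called lower were 8.08%, 10.3% and 98.2%, so the count in Med16/Taf13-AID does not set these genes apart. TDH1, a form of the dehydrogenase used by stationary cells, fell from 1956 ± 278 to 336 ± 80.1 normalized counts (SD, n = 3) in Spt20-AID (log2 fold change −2.55), by −1.67 in Med16/Spt20-AID, and was not called in Med16/Taf13-AID at −0.28 (edgeR adjusted p = 0.0523), where TMM called it higher. TDH3, the main form, had log2 fold changes of 0.14 and −0.04, not called, in both Spt20-AID strains, where TMM called it lower, and −0.67 in Med16/Taf13-AID, where it was called lower with the spike-in and higher with TMM. HXK2, the hexokinase of glucose-grown cells, was lower in all 3 strains with the spike-in, at −0.41, −0.66 and −0.91, and TMM called it higher in the last. HXK1 was not called in Spt20-AID with the spike-in, at 0.04, and fell by 2.35 on the log2 scale in Med16/Spt20-AID, from a DMSO level of 1606 ± 114 counts that was itself above the 384 ± 54.4 of Spt20-AID (SD, n = 3). In Med16/Taf13-AID HXK1 was lower at −1.88 with the spike-in, below the median of all genes, −1.68, and TMM did not call it. The other 5 genes of these steps lay above that median.

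The minor isozymes, of which PYK2 is a second pyruvate kinase and GPM2 and GPM3 are homologs of GPM1, included genes called higher. With the spike-in GPM3 was called higher in Spt20-AID and Med16/Spt20-AID, at 0.48 and 0.60, and PYK2 in Med16/Spt20-AID, at 0.78, and with TMM only the calls in Med16/Spt20-AID stayed. GPM2 was not called in Spt20-AID, at −0.55 from 16.6 counts with the spike-in, although TMM and median-of-ratios called it lower, and was lower in Med16/Spt20-AID at −0.46. In Med16/Taf13-AID GPM3 fell by 2.24 on the log2 scale, and TMM called it lower and the other 2 higher. Of the enzymes that make and degrade fructose-2,6-bisphosphate, an activator of phosphofructokinase, PFK27 was lower in both Spt20-AID strains at −0.60 and −1.03, and in Med16/Taf13-AID at −1.57 with the spike-in but not with TMM. PFK26 and FBP26 were higher in Spt20-AID at 0.39 and 0.57, which TMM did not call and median-of-ratios called for FBP26, and not called in Med16/Spt20-AID.

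Among the regulators GCR1 was called lower in every strain with the spike-in, at −0.37, −0.47 and −1.27, and with TMM in both Spt20-AID strains, whereas TMM called it higher in Med16/Taf13-AID. RAP1 was called higher in Spt20-AID and Med16/Spt20-AID at 0.43 and 0.38 with the spike-in, near the medians of all genes, and not with TMM. In Med16/Taf13-AID RAP1 fell by 1.98 on the log2 scale, below the median of all genes, and TMM also called it lower. GCR2 was higher in Spt20-AID at 0.36 with the spike-in only, and TYE7 was not called with the spike-in in either Spt20-AID strain, at 0.10 and 0.26, and was called lower in Spt20-AID with TMM.

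After pyruvate, PDC1, a pyruvate decarboxylase, and ADH1, the alcohol dehydrogenase of fermentation, were lower in all 3 strains with the spike-in. PDC1 changed by −0.41, −0.65 and −0.59 and ADH1 by −1.32, −0.63 and −0.64, and TMM called both lower in the Spt20-AID strains and higher in Med16/Taf13-AID, as it did the 10 genes. PDC5, the other gene examined in this branch, did not move with them. With the spike-in it was not called in Spt20-AID or Med16/Spt20-AID, at 0.30 and 0.37. It was called lower in Med16/Taf13-AID at −1.57, near the median of all genes, −1.68, and TMM called it in no strain. All 6 genes of the glycerol and pentose phosphate branches were lower in Spt20-AID, with a median of −0.63, and 5 of 6 in Med16/Spt20-AID, with TKL1, a transketolase, at −0.14, against 8.08% and 10.3% of all genes. GPD1, the glycerol-3-phosphate dehydrogenase, fell by 2.09 in Med16/Spt20-AID and by 0.74 in Spt20-AID on the log2 scale. In Med16/Taf13-AID this list had a median of −1.43 with the spike-in, against −1.68 for all genes, and TMM called 4 of its genes higher and none lower, against 833 higher and 810 lower of all 5567. Of the gluconeogenic and glyoxylate genes, which glucose represses, FBP1 was not tested with at most 17 reads, and of the 4 tested PCK1 was called higher in both Spt20-AID strains with the spike-in, at 0.68 and 0.50, and not with TMM. MDH2, a malate dehydrogenase, was called lower in Med16/Spt20-AID at −0.76, and ICL1 and MLS1 were called in neither Spt20-AID strain.

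**Figure D4:**
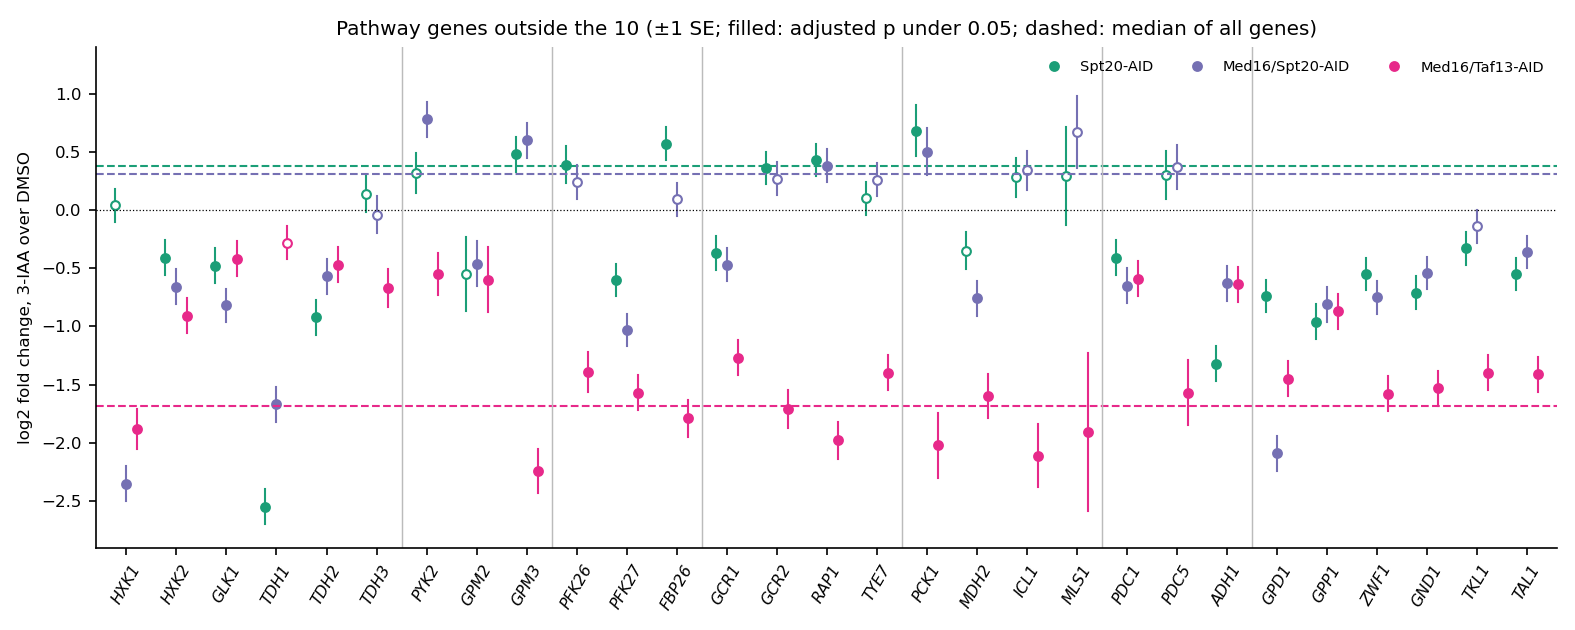
Log2 fold change on 3-IAA with spike-in scaling (points, with 1 standard error either way), filled where the edgeR adjusted p was under 0.05, for the pathway genes outside the 10 in Spt20-AID (green), Med16/Spt20-AID (purple) and Med16/Taf13-AID (pink), grouped from left to right as first and middle steps, minor isozymes, fructose-2,6-bisphosphate enzymes, regulators, gluconeogenesis and glyoxylate cycle, ethanol branch, and glycerol and pentose phosphate branches; dashed lines are the medians of all genes. PDC1, ADH1 and TDH2 lie above the Med16/Taf13-AID median and below the medians of both Spt20-AID strains, as the 10 genes do. Many other genes shown do so too, among them all of the glycerol and pentose phosphate branches. Others do not, among them PDC5, at 0.37 against a median of 0.31 in Med16/Spt20-AID. With TMM the sign of PDC1, ADH1 and TDH2 in Med16/Taf13-AID is reversed.

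Likeness to the 10 genes was measured as the root mean square distance of the 9 log2 ratios of same-numbered libraries, 3 in each strain, from the median of the 10 genes. Over 5138 other genes the nearest was PDC1 at 0.15, followed by HHT1, a histone H3 gene, BDF1, a bromodomain protein that associates with TFIID, and HXK2, each at 0.17. YJR027W at 0.18, RIB5, the riboflavin synthase, at 0.21, YNL208W at 0.22 and SST2, which dampens pheromone signalling, at 0.23 were next, and the median distance of other genes was 0.96. YJR027W lies in a repeated element, so its counts are uncertain. Within the 10, GPM1 and PGI1 were closest to the common course, at 0.12 and 0.15. PFK1 at 0.44 and ENO1 at 0.42 departed most, and 182 and 158 other genes lay nearer to the median of the 10 than these. The 10 genes set the median they are measured from, so their own distances are small in part by construction, unlike those of other genes. All these distances are a description over 9 ratios that share size factors.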

How the data were processed

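The authors used STAR 2.6.1a with the sacCer3 genome, and the deposited values are raw counts per gene for each of 18 libraries in 3 columns, for both strands together and for each strand; the strand opposite the read, the sense strand of this library type, was used. Multimapped reads are not in the counts. In the study DESeq2 was used with S. pombe spike-in size factors. These were recovered here by least squares from the mean normalized counts of a supplementary table (1950 genes; median relative error 6.97e-05% for sense counts, 20.7% for both strands); none of its test values were used. The table is held in part.

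The 5567 genes whose sense counts averaged 10 or more were fitted in edgeR 4.0.16 (R 4.3.3), quasi-likelihood, with 6 groups of strain and treatment and no block. P-values were adjusted by Benjamini-Hochberg across the 5567 genes and called under 0.05. SE is the absolute log2 fold change over the square root of F. The test was checked on simulated counts with known changes in Spt20-AID, at a spread set alike for all genes. It recovered 97% of 2-fold changes but only 41% of 1.5-fold changes, and 4.83% of its calls were false. A gene not called may therefore have changed by about 1.5-fold. Error of the size factors was not simulated. Alternatives were TMM, median-of-ratios size factors, DESeq2 1.42.0 (Wald), a mean count of 50, no filter, both strands, a fit of only the libraries compared, trends with gene length and GC content removed, and each library left out; leaving out same-numbered libraries together was added after seeing the data.

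Replicate numbers were taken as pairs because cultures were divided between treatments. Same-numbered libraries deviated from their group means with correlations across 5148 genes of 0.0693 to 0.403 in Spt20-AID, 0.226 to 0.468 in Med16/Spt20-AID and 0.0317 to 0.193 in Med16/Taf13-AID. No libraries of a group agreed within sampling noise (chi-square per degree of freedom 1.39 to 8.65). The replicates are described by the study as biological.

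The 10 genes, the gene lists and the tests were chosen with earlier results of these data known. Named genes are the 10, the genes of the lists, the 8 genes nearest to the 10 and the depleted subunits. Names and positions come from RefSeq R64, which is the sacCer3 assembly and holds 6008 of the 6692 identifiers; sequences are from its genome. Python 3.11.15, pandas 2.3.3, numpy 2.4.6 and matplotlib 3.10.9 were used.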

Additional observations from a re-analysis of the deposited data

Results flagged for a closer look

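In edgeR's interaction test with spike-in scaling, 4 of the 10 genes responded differently in Med16/Taf13-AID and Med16/Spt20-AID. The difference of the log2 fold changes was −0.42 for PGI1, −0.61 for PFK1, −0.50 for PFK2 and −0.47 for ENO2, more reduced in Med16/Taf13-AID in each case, whereas TMM and median-of-ratios scaling gave the opposite direction. Of all tested genes 93.9% were called in the same direction, with a median difference of −1.99, and the other number in the library names of Med16/Taf13-AID cannot be told apart from the strain. With the replicate number as a block PFK1 and PFK2 stayed called, PGI1 and ENO2 did not (edgeR adjusted p = 0.0739 and 0.0521), and with some single libraries left out 1 gene, PFK1, was called.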

How the results depend on the processing

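Scaling decided the direction of several results. TMM and median-of-ratios size factors, given in this order, turned the log2 fold changes in Med16/Taf13-AID to 0.71 and 0.73 for PGI1, 0.26 and 0.29 for PFK1, 0.58 and 0.61 for PFK2, 1.04 and 1.06 for FBA1, 1.11 and 1.13 for TPI1, 0.80 and 0.82 for PGK1, 0.98 and 1.00 for GPM1, 1.22 and 1.24 for ENO1, 0.96 and 0.99 for ENO2, and 1.01 and 1.03 for CDC19, with 0 genes called lower and 10 higher under both. The difference from Med16/Spt20-AID became 1.54 and 1.54 for PGI1, 1.35 and 1.35 for PFK1, 1.47 and 1.47 for PFK2, 1.65 and 1.65 for PGK1, 1.84 and 1.84 for GPM1, 1.5 and 1.49 for ENO2, and 1.55 and 1.55 for CDC19, with 0 called lower and 10 higher. The DMSO level in Med16/Spt20-AID against Spt20-AID became −0.69 and −0.69 for PGI1, −0.45 and −0.45 for PFK1, −0.42 and −0.41 for PFK2, −0.73 and −0.73 for FBA1, −0.71 and −0.71 for TPI1, −0.55 and −0.54 for PGK1, −0.61 and −0.60 for GPM1, −0.32 and −0.31 for ENO1, −0.37 and −0.37 for ENO2, and −0.69 and −0.68 for CDC19, with 10 called lower and 0 higher. In Med16/Taf13-AID against Med16/Spt20-AID the DMSO level became 0.20 and 0.21 for PGI1, 0.26 and 0.28 for ENO1, and 0.21 and 0.23 for ENO2, with 0 called lower and 6 higher, and the difference between Med16/Spt20-AID and Spt20-AID had 1 gene called lower and 2 higher. These methods set the median of all genes near 0 by construction, where the spike-in left it at 0.38, 0.31 and −1.68 in the responses of the 3 strains, and a shift of the whole library cannot be read from them. Both Spt20-AID responses kept their direction under every alternative, with 10 genes called lower under both scalings; over all genes, median-of-ratios called 1335 lower and 1116 higher in Spt20-AID, 1144 lower and 839 higher in Med16/Spt20-AID, and for Med16/Taf13-AID 728 and 916.

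Apart from scaling, no called value of the 10 genes changed sign in 470 values of the other planned settings or 750 with libraries left out; 13 and 52 calls were lost and 8 and 11 gained. When replicate number was added as a block, the difference between Med16/Taf13-AID and Med16/Spt20-AID had 2 genes called, and no other call on the 10 genes changed in the 3 responses and their differences; the DMSO levels of different strains were not fitted with a block. Removing length and GC trends left 5 genes with a higher DMSO level in Med16/Spt20-AID than in Spt20-AID. Without the 50 most abundant other genes in the total, the log2 change of the share in Med16/Spt20-AID was −0.61 in place of −0.54; the cause was not tested. Leaving out libraries, singly or as same-numbered pairs, gave 8 to 8 genes called lower in Med16/Spt20-AID, 4 to 10 in Spt20-AID and 9 to 10 in Med16/Taf13-AID, 0 to 2 higher in the difference of the Spt20-AID strains, 1 to 5 lower in the difference of the Med16 strains, and for DMSO levels 5 to 10 higher and 1 to 3 lower. The antisense percentage of the 10 genes, pooled over libraries, was 0.059 to 0.065% with each library left out in turn. The both-strand counts held 57.9% of the sense counts of PGK1, 33.5% of GPM1 and 41.9% of CDC19, and the cause was not tested. With the both-strand counts the calls in the 3 responses were the same. However, 6 rather than 8 genes had a higher DMSO level in Med16/Spt20-AID than in Spt20-AID, with CDC19 at 0.07 and GPM1 at 0.25 not called.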
